A study of Homo sapiens with 6 samples.

Results

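The genes described here handle cellular iron in PC9-BrM3 cells, which were selected for brain metastasis in mice from the human lung adenocarcinoma line PC9. They are 9 named genes (FTL, FTH1, TFRC, SLC40A1, SLC11A2, IREB2, ACO1, STEAP3 and NCOA4), taken by symbol from the 58735 genes of the deposited expression table. Each symbol matched 1 row. RNA-seq was run on 6 libraries in routine culture. In BrM3-shAKR1B10 (3 libraries, labelled AKR1B10 knockdown) the cells carried a lentiviral shRNA vector against AKR1B10, the vector 1 of the study, so that 1 shRNA sequence stands for the knockdown. In BrM3-shNC (3 libraries, genotype labelled WT) they carried the negative control shRNA in the same vector type. The study silenced AKR1B10, an aldo-keto reductase, to ask how it acts on resistance to pemetrexed, and the comparison here asks whether iron handling transcripts differ between silenced and control cells.

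Free iron is needed for heme, iron-sulfur clusters and DNA synthesis but also feeds the formation of reactive oxygen species, so cells keep most of it bound. Iron enters on transferrin through the transferrin receptor (TFRC), is reduced in the endosome by STEAP3 and crosses into the cytosol through the divalent metal transporter SLC11A2. It is stored in a shell of ferritin heavy (FTH1) and light (FTL) chains, released when NCOA4 carries ferritin to the lysosome, and exported by ferroportin (SLC40A1). The iron regulatory proteins ACO1 and IREB2 bind a short RNA hairpin, the iron responsive element (IRE), when iron is scarce. Binding in the 5′ UTR of ferritin or ferroportin mRNA blocks its translation, whereas binding in the 3′ UTR of TFRC mRNA protects it from decay.

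This hairpin concerns only part of the members, as a site in some transcripts and as the target of ACO1 and IREB2. It was searched in the GENCODE 29 coding transcripts (GRCh38, transcript strand). The pattern was a C, 5 bases of the upper stem, the loop CAGTGN and 5 bases that pair with the upper stem (Watson-Crick or G with T). With at least 3 of the 5 lower stem positions also paired, 79 of 19702 coding genes held it, or 0.401%, and 4 of the 9 members did. Those 4 are the ferritin, ferroportin and TFRC genes named above as holding the hairpin, so their count was known in advance and is no result. The sequences are given as DNA with the loop in capitals. They are shown because they are the sites in the members that match this strict pattern.
FTL: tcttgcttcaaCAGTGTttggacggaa
FTH1: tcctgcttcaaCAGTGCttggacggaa
SLC40A1: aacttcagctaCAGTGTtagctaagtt
TFRC site 1: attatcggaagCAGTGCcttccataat
TFRC site 2: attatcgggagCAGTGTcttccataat
TFRC site 3: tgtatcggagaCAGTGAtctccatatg
TFRC site 4: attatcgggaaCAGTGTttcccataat

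The FTL element lies at chr19:48965336-48965362 (plus strand) and the FTH1 element at chr11:61967575-61967601 (minus strand), each in the 5′ UTR in exon 1. Both ferritin elements have the same bases at 25 of 27 positions. The SLC40A1 element lies at chr2:189580662-189580688 (minus strand), in the 5′ UTR in exon 1 of 1 of the 5 coding transcripts. The FTH1 element was in 7 of 8 annotated coding transcripts and each TFRC site in 3 of 4. Which transcripts were expressed was not measured, so the gene levels below may mix transcripts with and without the element. The TFRC sites 1 to 4 lie at chr3:196050980-196051006, chr3:196050576-196050602, chr3:196050511-196050537 and chr3:196050464-196050490 (minus strand), all in the 3′ UTR in exon 19, with 5 of 5 lower pairs each. No match was found in SLC11A2, IREB2, ACO1, STEAP3 or NCOA4, which says only that this pattern is not in their coding transcripts. Some SLC11A2 transcripts are known to carry an IRE in the 3′ UTR, which this search does not find.

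Expression was deposited as FPKM (fragments scaled to gene length and a library size), and the whole reads recovered from it summed to 16964504 to 18709028 per library. The library size used was not this total. It was 101.9% to 102.4% of the reads on genes in BrM3-shAKR1B10 and 98.1% to 99.7% in BrM3-shNC, so the deposited values already carry a scaling between libraries that differs by group. AKR1B10 itself lay between 107 and 110.2 FPKM in BrM3-shAKR1B10 and between 772 and 799 FPKM in BrM3-shNC, or 13.9% of the control level. Of the epithelial markers, KRT8, KRT18 and KRT19 lay between 683 and 974 FPKM over all libraries and EPCAM between 87.0 and 112.9 FPKM, whereas the lung lineage markers NKX2-1, NAPSA and SFTPB did not exceed 0.677 FPKM. Of 12 leukocyte, endothelial, fibroblast, astrocyte and erythroid markers, 3 were at 0 in all libraries, COL1A2 and HBB among them, and 1, COL1A1, had a mean of at least 1 FPKM. Their summed level was 1.65 to 1.82 FPKM in BrM3-shAKR1B10 and 2.64 to 2.87 FPKM in BrM3-shNC, and without COL1A1 it was 0.491 to 0.558 FPKM and 0.626 to 0.897 FPKM, so the groups did not overlap either way. COL1A1 itself had a log2 fold change of -0.67 (limma, adjusted p = 0.0032). The part of this difference in the results was not tested. In bulk RNA, fewer cells of a type and less RNA per cell cannot be told apart. The labels do not say whether the 3 libraries of a group came from separate cultures, so the p-values measure only the spread between these libraries.

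By FPKM, which compares genes per length, the 9 members covered a wide range of levels. FTL had the highest mean FPKM of all nuclear genes (rank 1), FTH1 ranked 13, NCOA4 ranked 199 and TFRC ranked 825. STEAP3, IREB2, SLC40A1, SLC11A2 and ACO1 had mean levels over the 6 libraries of 10.5, 8.28, 6.31, 6.11 and 5.40 FPKM. The mean level of FTL was 626-fold that of ACO1, the lowest member. FTL alone took 0.298% of all reads on genes and FTH1 0.165%. In BrM3-shNC the order of levels was FTL, FTH1, NCOA4, TFRC, STEAP3, IREB2, SLC11A2, ACO1 and SLC40A1, and the values of no neighboring pair overlapped. In BrM3-shAKR1B10 SLC40A1 stood directly below TFRC in place of last. There it overlapped with STEAP3, with means of 8.70 and 8.42 FPKM, and the other neighboring pairs did not overlap.

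**Figure D1:**
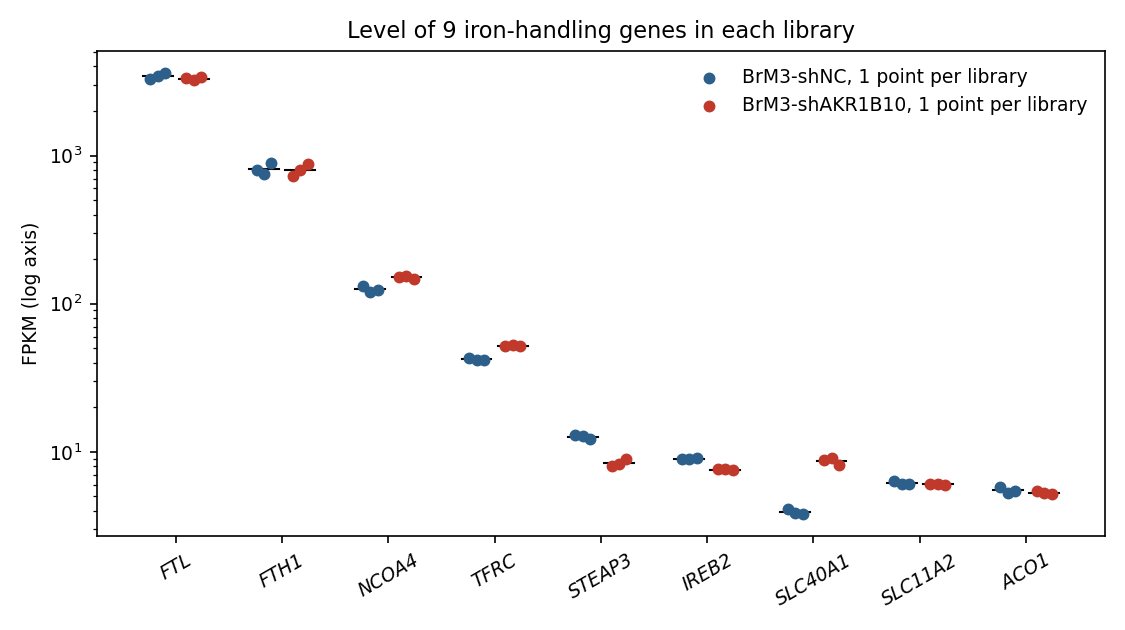
FPKM (log axis) of the 9 iron-handling genes, with 1 point per library, BrM3-shNC in blue and BrM3-shAKR1B10 in red, and a black bar at each group's mean. FTL lies at 3224 FPKM or above in every library, and SLC40A1 moves from at most 4.09 FPKM in BrM3-shNC to at least 8.20 FPKM in BrM3-shAKR1B10.

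With AKR1B10 silenced, the iron exporter SLC40A1 was 2.19-fold higher and the endosomal reductase STEAP3 fell to 66.5% of its control level, while the values of both ferritin chains overlapped between groups. TFRC and NCOA4 were slightly higher and IREB2 slightly lower, by less than the fold threshold. limma was run on log2(FPKM + 0.1) of the 13150 genes whose mean FPKM reached 1. A call needed both a Benjamini-Hochberg adjusted p under 0.05 and a log2 fold change beyond 0.5 in either direction. All 9 members passed the filter on low values. Of these, 1 was called higher (SLC40A1), against 5.83% of all genes tested, and 1 was called lower (STEAP3), against 7.45%. By adjusted p alone, 3 members were higher (19.4% of all genes tested) and 2 were lower (23.1%). The groups did not overlap in 6 of the 9 members, against 54.7% of all genes tested. Among 9 genes such counts are near the background and are not a result about the members as a group. The median log2 fold change of the members was -0.03, and that of all genes tested was -0.01.

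SLC40A1 (ENSG00000138449, chr2:189560579-189583758, minus strand) encodes ferroportin, the iron exporter of the plasma membrane. Its level was 8.82, 9.07 and 8.20 FPKM in the BrM3-shAKR1B10 libraries and 4.09, 3.86 and 3.80 FPKM in the BrM3-shNC libraries. Every silenced library lay above every control library. The difference in level was 2.19-fold (log2 fold change 1.13, standard error 0.0560, 95% interval 0.997 to 1.26, adjusted p = 2.9e-05 from limma). It rested on between 283 and 709 reads per library, for which counting error alone gives coefficients of variation of 3.86% (BrM3-shAKR1B10) and 5.75% (BrM3-shNC), close to the observed 5.12% and 3.93%. Of all genes tested, 98.6% had a lower log2 fold change.

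STEAP3 (ENSG00000115107, chr2:119223831-119265652, plus strand) encodes the ferrireductase that reduces iron in the endosome after uptake with transferrin. It was at 8.04, 8.26 and 8.97 FPKM in BrM3-shAKR1B10 and at 12.9, 12.8 and 12.2 FPKM in BrM3-shNC. All 3 silenced libraries lay below the control libraries. On the log2 scale the difference was -0.58 (standard error 0.0526, 95% interval -0.71 to -0.46, adjusted p = 2.9e-04 from limma). The interval includes the threshold of -0.5. The antisense gene STEAP3-AS1 overlaps STEAP3 and held at most 2.22% as many reads, and the counting was not stated to use strand, so the reads of the pair cannot be told apart.

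TFRC (ENSG00000072274, chr3:196027183-196082189, minus strand), the receptor whose 3′ UTR holds the 4 hairpins shown above, was at 52.0, 52.3 and 51.5 FPKM in BrM3-shAKR1B10 and at 43.3, 41.7 and 41.5 FPKM in BrM3-shNC. The groups were separate, with a small spread in each. The coefficient of variation of TFRC was 0.817% in BrM3-shAKR1B10, below the counting error of 1.17%, and 2.32% in BrM3-shNC, above that of 1.30%. TFRC was 1.23-fold higher (95% interval 1.17 to 1.29, log2 fold change 0.30, standard error 0.0302, adjusted p = 4.6e-04 from limma), below the fold threshold of the call. SLC11A2, which carries the reduced iron out of the endosome, lay between 6.01 and 6.08 FPKM in BrM3-shAKR1B10 and between 6.09 and 6.36 FPKM in BrM3-shNC. Its groups did not overlap, but its log2 fold change was -0.03 (95% interval -0.13 to 0.06, adjusted p = 0.53 from limma) and it did not pass the test.

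FTL (ENSG00000087086, chr19:48965301-48966878, plus strand), the ferritin light chain that favors iron mineral formation in the shell, was at 3316, 3224 and 3393 FPKM in BrM3-shAKR1B10 and at 3279, 3436 and 3623 FPKM in BrM3-shNC. The groups overlapped. The log2 fold change was -0.06 (95% interval -0.18 to 0.07, adjusted p = 0.41 from limma), so that the interval of the difference runs from 0.883-fold to 1.05-fold. FTH1 (ENSG00000167996, chr11:61959718-61967660, minus strand), the heavy chain with the ferroxidase site, was at 729, 804 and 884 FPKM in BrM3-shAKR1B10 and at 802, 747 and 889 FPKM in BrM3-shNC. These ranges nearly coincided. The log2 fold change of FTH1 was -0.01 (95% interval -0.23 to 0.20, adjusted p = 0.92 from limma), or 0.855-fold to 1.15-fold. The sign turned with TPM, quantile normalization or voom, where FTH1 did not pass the test either.

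FTH1 varied more between libraries of 1 group than any other member, with coefficients of variation of 9.61% (BrM3-shAKR1B10) and 8.78% (BrM3-shNC), although its reads gave a counting error of only 0.586% and 0.582%. For FTL the observed variation was 2.55% and 5.00%, against a counting error of 0.439% and 0.430%. Both ferritin genes have many processed copies in the genome that can take or share reads. The table lists 16 FTL pseudogenes, of which 6 were above 0, and 25 FTH1 pseudogenes, of which 13 were above 0. Together they held at most 0.0881% as many reads as FTL and 1.13% as many as FTH1 in any library. How the authors treated reads that fit several places is not named, so reads lost to such copies are not seen here.

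**Figure D2:**
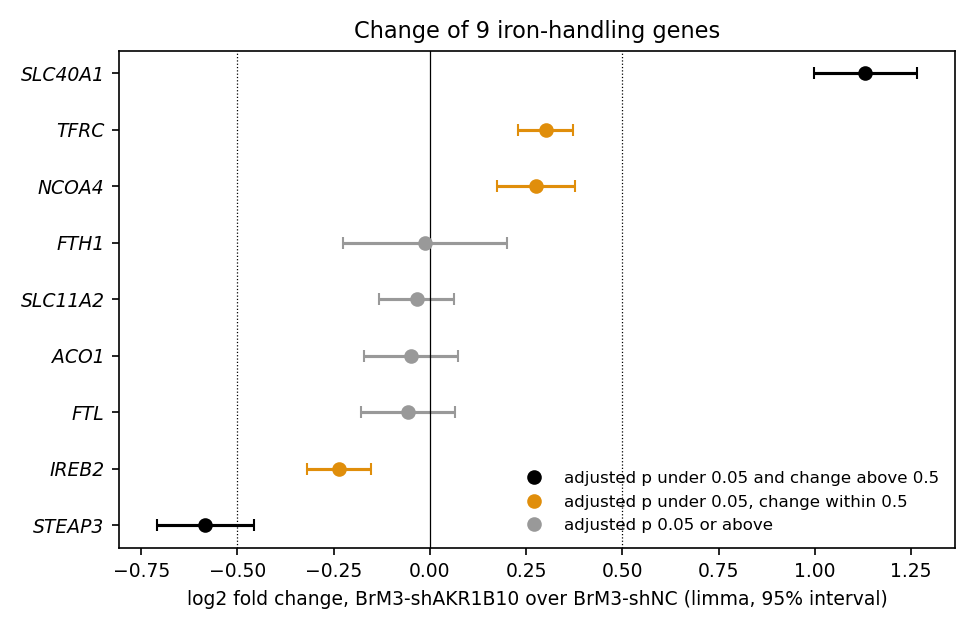
Log2 fold change of each member in BrM3-shAKR1B10 over BrM3-shNC with its 95% interval from limma, 3 libraries per group, with dotted lines at the threshold of 0.5 in either direction. SLC40A1 (1.13) and STEAP3 (-0.58) lie beyond it, TFRC, NCOA4 and IREB2 passed the adjusted p within it, and the intervals of FTL, FTH1, SLC11A2 and ACO1 include 0.

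NCOA4 (ENSG00000266412), the receptor that brings ferritin to the autophagosome, was at 152, 155 and 147 FPKM in BrM3-shAKR1B10 and at 131, 119.6 and 124 FPKM in BrM3-shNC. Every silenced library exceeded every control library. The level was 1.21-fold higher (95% interval 1.13 to 1.30, log2 fold change 0.28, standard error 0.0424, adjusted p = 0.0027 from limma), which is within the fold threshold.

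Of the iron regulatory proteins, IREB2 passed the adjusted p and ACO1 did not. IREB2 (ENSG00000136381), or IRP2, which is degraded when iron is plentiful, was at 7.67, 7.63 and 7.49 FPKM in BrM3-shAKR1B10 and at 8.95, 8.92 and 9.02 FPKM in BrM3-shNC. The groups were separate, at a fold of 0.849 (95% interval 0.801 to 0.900, log2 fold change -0.24, adjusted p = 0.0023 from limma). The coefficients of variation of IREB2, 1.25% (BrM3-shAKR1B10) and 0.547% (BrM3-shNC), lay below its counting error of 2.61% and 2.41%. The libraries were thus closer together than counting alone gives. ACO1 (ENSG00000122729), or IRP1, which serves as cytosolic aconitase when it holds an iron-sulfur cluster, lay between 5.17 and 5.42 FPKM in BrM3-shAKR1B10 and between 5.28 and 5.76 FPKM in BrM3-shNC. Its groups overlapped and its log2 fold change was -0.05 (95% interval -0.17 to 0.07, adjusted p = 0.47 from limma). The difference between both changes was not tested.

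Within each library, the ratio of FTL to FTH1 in FPKM was 4.55, 4.01 and 3.84 in BrM3-shAKR1B10 and 4.09, 4.60 and 4.08 in BrM3-shNC. The groups overlapped, with means of 4.13 ± 0.371 and 4.25 ± 0.299 (SD, n = 3 each, exact two-sided permutation test of the log2 ratio, p = 0.50). The ratio of TFRC to FTH1, uptake receptor to storage chain, was 0.0714, 0.0650 and 0.0582 in BrM3-shAKR1B10 and 0.0539, 0.0558 and 0.0467 in BrM3-shNC. Every silenced library lay above the control libraries, with means of 0.0649 ± 0.00659 and 0.0521 ± 0.00483 (SD, n = 3 each) and a difference of 0.31 on the log2 scale. The exact permutation test gave p = 0.10, the smallest that 3 against 3 allow, so this design cannot pass 0.05.

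**Figure D3:**
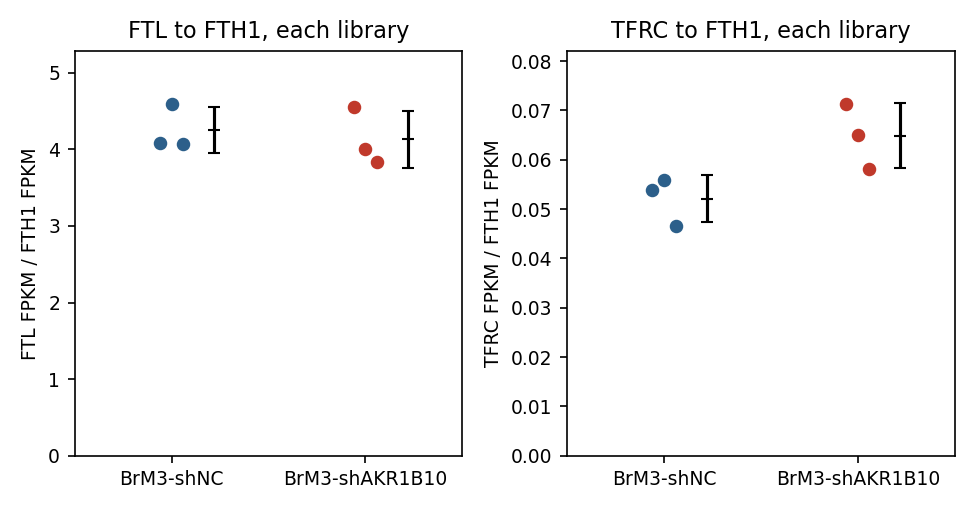
Ratios of FPKM within each library (unitless, axes from 0), FTL to FTH1 on the left and TFRC to FTH1 on the right, with 1 point per library and the mean ± SD of 3 libraries beside them. The FTL to FTH1 ratios overlap between groups, and the TFRC to FTH1 ratios are at most 0.0558 in BrM3-shNC and at least 0.0582 in BrM3-shAKR1B10.

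Around the members, 72 further genes of iron metabolism were listed, of which 55 were tested. Of these, 4 were called higher (HMOX1, SLC48A1, EPAS1 and CYBRD1) and 1 was called lower (STEAP4), beside 5.83% and 7.45% of all genes tested. By adjusted p alone 14 were higher and 8 lower, beside 19.4% and 23.1%. The median log2 fold change of the 55 genes was -0.01, the same to 2 decimals as over all genes tested.

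Heme synthesis, export and breakdown held 14 tested genes, of which 2 were called higher and 0 lower, beside 5.83% and 7.45% of all genes tested. By adjusted p alone 7 were higher and 1 was lower, beside 19.4% and 23.1%, and the median log2 fold change was 0.12. HMOX1, the inducible heme oxygenase that frees iron from heme, was at 12.4, 10.7 and 11.4 FPKM in BrM3-shAKR1B10 and at 4.28, 4.40 and 5.42 FPKM in BrM3-shNC. The groups were far apart, and HMOX1 was 2.42-fold higher (95% interval 2.05 to 2.86, log2 fold change 1.28, adjusted p = 1.7e-04 from limma). SLC48A1, which carries heme out of endosomes and lysosomes, was at 23.9, 22.4 and 23.7 FPKM against 13.0, 14.4 and 14.1 FPKM, or 0.75 higher on the log2 scale (limma, adjusted p = 9.6e-05). Among the synthesis enzymes, the log2 fold change by limma was 0.36 for ALAS1, which makes the first precursor (adjusted p = 0.0027), 0.30 for FECH, which inserts the iron (adjusted p = 8.2e-04), and -0.45 for CPOX (adjusted p = 5.8e-04). None of the 3 passed the fold threshold. BLVRB, a biliverdin reductase, had the highest level in the list, between 36.5 and 43.8 FPKM, and its groups overlapped.

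Of 7 tested genes of uptake and reduction, CYBRD1, a ferrireductase of the cell surface, was called higher, with 20.4, 18.6 and 19.9 FPKM in BrM3-shAKR1B10 and 13.3, 12.9 and 12.3 FPKM in BrM3-shNC (log2 fold change 0.61, adjusted p = 2.0e-04 from limma). STEAP4, a relative of STEAP3, was called lower, with 1.22, 1.13 and 0.983 FPKM against 1.90, 1.78 and 1.95 FPKM (log2 fold change -0.71, adjusted p = 0.0048 from limma). With a pseudocount of 1 in place of 0.1, STEAP4 reached only -0.45 on the log2 scale and was not called. LCN2, a carrier of iron-binding siderophores, had the highest level of the list at 65.0 FPKM on average and was 0.23 higher on the log2 scale (limma, adjusted p = 0.0127). SLC39A8, a metal ion importer, had a log2 fold change of -0.50 (limma, adjusted p = 0.0068) with separate groups, just short of the fold threshold. In this list 1 gene was called in each direction, beside 5.83% of all genes tested higher and 7.45% lower, and by adjusted p alone 2 were higher and 2 lower, beside 19.4% and 23.1%. TFR2, STEAP2, TF, SLC22A17 and SCARA5 had a mean under 1 FPKM and were not tested.

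In the other groups of iron genes EPAS1 was called higher and no gene was called lower, beside 5.83% and 7.45% of all genes tested. No list was tested as a whole, so no shortage of calls is read from them. Among 24 tested genes of mitochondrial iron supply and iron-sulfur assembly, 3 were lower and 1 was higher by adjusted p alone, beside 23.1% and 19.4% of all genes tested, and the median log2 fold change was -0.04. The mitochondrial chaperone HSPA9, the highest of them, lay between 59.3 and 65.6 FPKM. CIAO2A, a factor of cytosolic iron-sulfur assembly, fell most of that list, by 0.40 on the log2 scale (limma, adjusted p = 2.6e-04). Of 4 tested genes of storage, iron chaperones and control of the iron regulatory proteins, PCBP1, which hands iron to ferritin, was the highest at 80.1 FPKM. Its log2 fold change was -0.26 by limma (adjusted p = 0.0392), and its groups overlapped. FBXL5, which marks IREB2 protein for degradation, did not pass the test (log2 fold change -0.05, limma, adjusted p = 0.57). HERC2 of the same list was 0.19 higher on the log2 scale (limma, adjusted p = 0.0226), with separate groups. By adjusted p alone 1 gene of this list was higher and 1 lower, beside 19.4% and 23.1% of all genes tested. Of the 9 listed genes of the export and hepcidin axis 3 were tested, with HFE the highest at 7.48 FPKM. HFE had a log2 fold change of -0.16 (limma, adjusted p = 0.0249) and BMP6, a ligand that induces hepcidin, one of 0.37 (limma, adjusted p = 0.0262). HAMP, which encodes hepcidin, HEPH and CP were not tested, all with a group mean of at most 0.0940 FPKM. Among other transcripts known to hold an IRE, EPAS1, a hypoxia-inducible factor, was at 38.7, 36.6 and 38.1 FPKM against 23.5, 23.1 and 21.7 FPKM, or 0.73 higher on the log2 scale (limma, adjusted p = 5.5e-05), while CDC42BPA, a kinase, had a log2 fold change of 0.13 and did not pass the test.

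**Figure D4:**
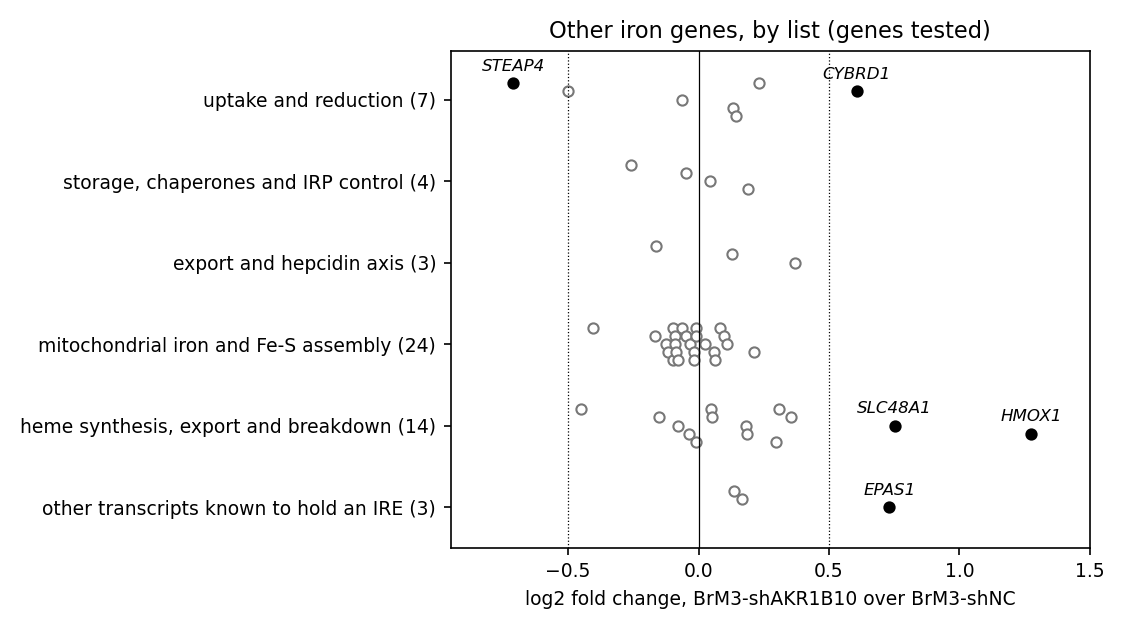
Log2 fold change of the 55 other iron genes tested, 1 point per gene in rows by list with the number tested in brackets, filled where called and offset vertically only for legibility, with dotted lines at 0.5 in either direction. STEAP4 lies to the left of the lower line, and CYBRD1, SLC48A1, EPAS1 and HMOX1 lie to the right of the upper one.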

How the data were processed

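RNA-seq of 3 BrM3-shAKR1B10 and 3 BrM3-shNC libraries was analysed, grouped by the sample labels. According to the submitters' processing notes and the paper's methods, the authors aligned reads with HISAT2 2.0.5, counted them per gene with featureCounts 1.5.0-p3 and deposited FPKM, with replicates not pooled. The authors used DESeq2 on counts. The genome build and the use of strand are not given in the sources used here, and the positions of all 58735 genes match GENCODE 29 (GRCh38). FPKM uses a library size scaled between libraries and the length of all merged exons, so levels between genes depend on it.

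Reads were recovered from FPKM and the deposited gene length (100% of values within 0.02 of a whole number). A count of 3 reads corresponds to 0.163 to 0.177 FPKM at a gene length of 1 kb (counting error only). limma 3.58.1 in R 4.3.3 (eBayes with trend) was run on log2(FPKM + 0.1) for the 13150 genes whose mean FPKM reached 1, with Benjamini-Hochberg adjustment. Fold changes on this scale understate those of low genes. The script was tested on simulated data. Thresholds were those of the paper. Python 3.11.15 with scipy 1.17.1 served for the rest. Members and lists were chosen with earlier results of these data known. Besides the members, AKR1B10, every called gene of a list and its highest gene are named by rule. Other named genes were chosen after their values were seen. No pair of replicates was alike within sampling noise (chi-square per gene at least 2.45). Alternatives are given in the closing section. Some listed genes are not reported here by name.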

Additional observations from a re-analysis of the deposited data

How the results depend on the processing

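Under 18 alternatives (pseudocount, filter, scaling, test, block, fold threshold, each library left out), SLC40A1 was called higher throughout, with log2 fold changes between 0.98 and 1.20, and STEAP3 lower in all but the threshold of 1, between -0.63 and -0.54. TFRC (0.29 to 0.35), NCOA4 (0.24 to 0.35) and IREB2 (-0.24 to -0.19) kept their direction. The filter, the eBayes trend, the block and the fold threshold leave a log2 fold change unchanged by construction. These alternatives therefore say nothing about its direction or size. The median-of-ratios scaling moved no value to 2 decimals (SLC40A1 1.13), since the deposited FPKM are already scaled between libraries in nearly that way, and it is no evidence of stability. With a threshold of 1, 0 members and 0 other iron genes were lower and 1 other gene was higher. Without a fold threshold, 2 members and 8 other genes were lower and 3 members and 14 others higher. Other lower genes numbered 0 with a pseudocount of 1 or a mean FPKM of at least 5, and 2 with a pseudocount of 0.01 or quantile normalization, and between 1 and 2 when single libraries were left out (2 without BrM3-shAKR1B10 replicate 2 or BrM3-shNC replicate 1). The log2 fold change of FTH1, never past the threshold, turned to 0.024 with TPM, 0.028 with quantile normalization and 0.035 with voom, and lay between -0.082 and 0.057 with single libraries left out. That of SLC11A2 turned to 0.0019 with TPM and 0.013 with voom. The FTL to FTH1 difference (log2) lay between -0.11 and 0.014 with single libraries left out, and turned positive without BrM3-shAKR1B10 replicate 3 or BrM3-shNC replicate 2. The TFRC to FTH1 difference lay between 0.24 and 0.39. Over all genes, 980 were lower and 766 higher, against 205 and 168 with a threshold of 1, 532 and 290 with a mean FPKM of at least 5 and 708 and 497 with a pseudocount of 1. Higher genes outnumbered lower ones with TPM (873 lower, 902 higher) and voom (852 lower, 976 higher). The cause of these shifts was not tested. With the replicate number as a block, SLC40A1 was 1.13 higher on the log2 scale (limma, adjusted p = 9.5e-04), 1 member was again higher and 1 lower, and no other member's call changed. Same-numbered libraries did not deviate together (correlations -0.0155 to 0.0039), so no pairing by number was seen. This does not show whether they shared a culture or day. Of the genes called, depth limits HMOX1, STEAP4 and SLC40A1 most, with as few as 179, 196 and 283 reads in a library.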

Other observations

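Apart from the members, 75 coding genes held the IRE pattern with at least 3 lower stem pairs, and 48 of them were tested. Of these, 3 were called lower and 4 higher, beside 7.45% and 5.83% of all genes tested, and their median log2 fold change was 0.01, against -0.01 over all genes tested.

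Antioxidant response element cores (TGACNNNGC, both strands) were searched in RefSeq promoter windows of 300 bases (GRCh38.p14) for the 8 members that matched the table. Of their 13 windows, 1 held the motif (NCOA4), or 7.69%, beside 13.3% of 34796 windows over all genes. With so few windows nothing can be read from the difference.

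Over the 6 libraries, the protein-coding genes whose log2 values followed FTL most closely were MRPL4 (Pearson's r = 0.997), a protein of the mitochondrial ribosome, SH3GL1 (0.992), an endophilin, and NDUFS7 (0.986), a subunit of respiratory complex I. They are the top 3 of 10776 genes compared, over libraries that share 2 groups and their depths. None of these 3 genes was called.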
